A study of Mus musculus with 3 samples.

Results

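The MHC class II presentation genes of mouse back skin were followed across its cell types and across loss of Piezo1 in the epidermis. The 7 genes were H2-Aa, H2-Ab1 and H2-Eb1, which encode chains of the class II molecules, Cd74, H2-DMa, H2-DMb1 and Ciita. They were taken by symbol from the 32285 genes of the deposited count tables, and all 7 were found. Single-cell libraries were made by 10x 3′ sequencing, which counts unique molecular identifiers (UMIs) near the end of each transcript, with 1 library per group. The 2-week knockout was K5-Cre-er/Piezo1fl/fl/Tdfl/+ skin taken on postnatal day 62, the 3-week knockout was K5-Cre-er/Piezo1fl/fl/Tdfl/fl skin taken on postnatal day 71, and the control was K5-Cre-er/Piezo1fl/+/Tdfl/+ skin taken on postnatal day 62. All 3 groups were C57BL/6 mice that received tamoxifen from postnatal day 48 to 52, and the control carried the driver and 1 floxed Piezo1 allele too. There was no control of the age of the 3-week knockout, so time, age, the second Td allele and genotype cannot be told apart there. The K5 driver acts in keratinocytes and not in the immune cells that hold most of the class II transcripts. The number of mice per library is not given in the sources used here.

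Class II molecules carry peptides from the endosomes of an antigen-presenting cell to its surface, where CD4 T cells read them. Each molecule pairs an alpha chain with a beta chain, and the invariant chain encoded by Cd74 fills the groove of the new pair until cathepsins degrade it. The DM heterodimer of H2-DMa and H2-DMb1 then helps to exchange the remaining fragment for peptide, and CIITA, the master transactivator, turns the gene set on through a factor complex bound to X and Y boxes of the promoters. In skin the family is best known in Langerhans cells, the dendritic cells of the epidermis, and in dermal dendritic cells and macrophages, and keratinocytes can be made to express it by interferon gamma.

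After filtering, 9568 cells of the 2-week knockout, 9637 cells of the 3-week knockout and 4899 cells of the control were kept. Median depths were 7502 in the 2-week knockout, 8793 in the 3-week knockout and 9985 in the control, in UMIs per cell. Clusters were called by likeness to marker genes and were formed without the class II genes. Pairs of libraries shared 17 to 29 cell barcodes. Piezo1 in basal keratinocyte-like cells was 23.0 CPM, the UMIs of a gene per 1000000 UMIs of its class, in the 2-week knockout, 15.1 CPM in the 3-week knockout and 33.5 CPM in the control, although reads at the end of the transcript do not show whether the floxed part was removed. Every interval below is a 95% interval for counting error only, and with 1 library per group no difference has a replicate check and none was tested.

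The class II cluster lies on chromosome 17 of GRCm38, where H2-DMa spans chr17:34119541-34139101, H2-DMb1 chr17:34153072-34160230, H2-Ab1 chr17:34257689-34269419, H2-Aa chr17:34282744-34287823 and H2-Eb1 chr17:34305867-34316674. H2-Aa is on the minus strand and the other genes of the cluster are on the plus strand. Ciita lies apart at chr16:10480059-10528418, and Cd74 also lies outside the cluster. H2-Ea, the partner of H2-Eb1, is not functional in C57BL/6 mice and was not analysed here. The 150 bases before the start of H2-Aa (chr17:34287824-34287973, minus strand) and H2-Eb1 (chr17:34305717-34305866, plus strand) are shown because the UMI counts of these chain genes differed in keratinocytes. They are RefSeq promoter sequences of GRCm38.p6, written 5′ to 3′, with capitals for the X box core AGNNACNG and the Y box core GATTGG on either strand.
H2-Aa: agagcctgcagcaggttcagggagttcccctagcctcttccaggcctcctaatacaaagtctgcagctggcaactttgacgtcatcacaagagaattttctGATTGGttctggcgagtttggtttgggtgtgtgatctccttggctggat
H2-Eb1: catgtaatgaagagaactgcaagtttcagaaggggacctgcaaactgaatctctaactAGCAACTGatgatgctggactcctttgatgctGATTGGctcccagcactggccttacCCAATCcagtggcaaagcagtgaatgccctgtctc
H2-Eb1 held an X core 92 to 85 bases before its start and a Y core 60 to 55 bases before it, with 24 bases between them, and a second Y core on the other strand. H2-DMb1 held the same pair with 25 bases between the cores. The H2-Aa window held a Y core 49 to 44 bases before its start and no match to these X letters, and the windows of H2-DMa held neither. Of 32851 promoter windows of the same length, 10.9% held the Y core, 28.8% the X core and 3.1% both, so a match is a description of the letters and not of a bound site. Promoter entries were used for 4 of the 7 genes, and H2-Ab1, Cd74 and Ciita are named only.

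Class II transcripts were concentrated in a small number of immune cells. Langerhans-like cells numbered 45 in the 2-week knockout, 132 in the 3-week knockout and 69 in the control. Type 2 conventional dendritic-like cells numbered 6 in the 2-week knockout, 50 in the 3-week knockout and 45 in the control. Macrophage-like cells numbered 0 in the 2-week knockout, 38 in the 3-week knockout and 45 in the control, and type 1 conventional dendritic-like cells 1 in the 2-week knockout, 10 in the 3-week knockout and 7 in the control. These antigen-presenting classes held 81.6% of the UMIs of H2-Aa, H2-Ab1, H2-Eb1 and Cd74 together in the 2-week knockout, 82.2% in the 3-week knockout and 88.7% in the control. Keratinocyte classes, which were the majority of cells, held 17.7% in the 2-week knockout, 14.3% in the 3-week knockout and 4.43% in the control. As a share of kept cells, Langerhans-like cells were 0.470% in the 2-week knockout, 1.37% in the 3-week knockout and 1.41% in the control. In the same order type 2 dendritic-like cells were 0.0627%, 0.519% and 0.919%, and macrophage-like cells 0%, 0.394% and 0.919%. Other classes differed too, with fibroblast-like cells at 1.55%, 8.17% and 8.68% and bulge-like cells at 28.4%, 7.83% and 10%.

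The genes differed in how strictly they followed the antigen-presenting cells. Over all 3 libraries these cells held 85.4% of the UMIs of H2-Aa, 85.6% of H2-Ab1, 81.8% of H2-Eb1, 84.6% of Cd74 and 83.3% of Ciita. H2-DMa was lower at 75.1%, and H2-DMb1 stood apart with 52.7% in antigen-presenting cells and 41.7% in keratinocyte classes. H2-DMb1 has a closely similar neighbour, H2-DMb2, from chr17:34143307-34151555, so the split of reads between them is uncertain. H2-DMb2 itself had 72 UMIs in the 2-week knockout, 463 in the 3-week knockout and 191 in the control. Of these, 62 lay in Langerhans-like cells of the 2-week knockout, 281 in those of the 3-week knockout and 112 in those of the control, and in the 3-week knockout 48 lay in upper hair follicle-like and 44 in suprabasal cells.

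Every one of the 7 genes had its highest level in Langerhans-like cells among the named classes with at least 20 cells in each library, with no overlap with the next class. That rule left out the dendritic-like and macrophage-like classes. In type 2 dendritic-like cells Cd74 was higher than in Langerhans-like cells, at 30926 against 29451 CPM in the 3-week knockout and 18916 against 18628 CPM in the control. H2-Aa was higher there only in the 3-week knockout (13477 against 12431 CPM), and the remaining genes were lower in both libraries. H2-Aa was 9394 CPM in the 2-week knockout, 12431 CPM in the 3-week knockout and 10539 CPM in the control in these cells, and 15.6 in the 2-week knockout, 41.9 in the 3-week knockout and 26.2 in the control in the second class, suprabasal keratinocyte-like cells. Below the Langerhans-like cells most neighbouring classes overlapped across the libraries. H2-DMb1 was an exception, since bulge-like hair follicle cells (17.2 CPM in the 2-week knockout, 14.3 CPM in the 3-week knockout and 18.6 CPM in the control) lay above upper hair follicle-like cells (8.47 CPM in the 2-week knockout, 13.3 CPM in the 3-week knockout and 11.2 CPM in the control). For H2-DMa, Schwann-like cells were second by median, at 14.8 CPM in the 2-week knockout, 7.89 CPM in the 3-week knockout and 15.2 CPM in the control. Cycling keratinocyte-like cells came next, with 6.83 CPM at most. The second place was not secure. H2-DMa was found in only 3.28% of 122 Schwann-like cells of the 2-week knockout, 2.03% of 148 of the 3-week knockout and 2.56% of 78 of the control. Upper hair follicle-like cells of the 3-week knockout were above them, at 12.6 CPM.

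**Figure D1:**
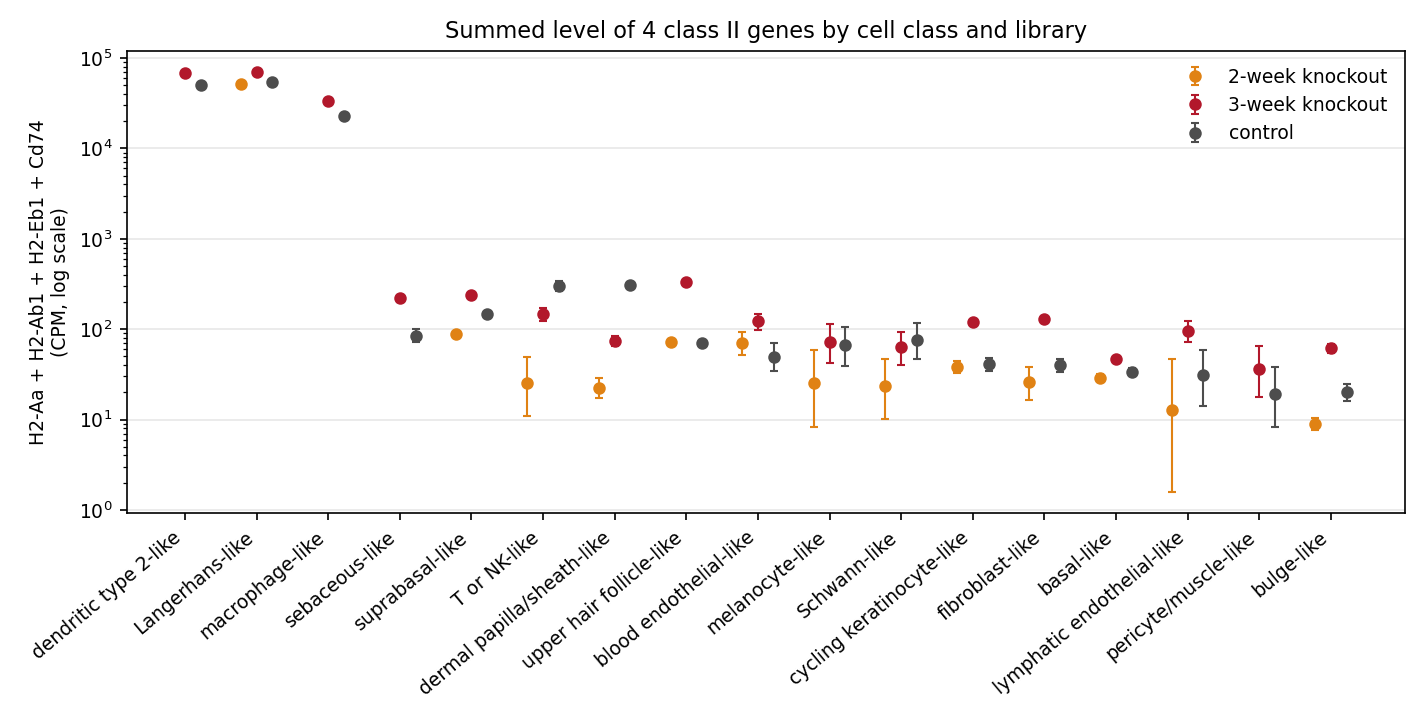
Summed level of H2-Aa, H2-Ab1, H2-Eb1 and Cd74 (CPM, log axis) in each named skin cell class with at least 20 cells, with 1 point per library and 95% counting intervals. Type 2 dendritic-like, Langerhans-like and macrophage-like cells lie between 22793 and 69930 CPM, and the other named classes lie at 332 CPM or lower.

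Type 2 dendritic-like cells were close to the level of Langerhans-like cells, and type 1 dendritic-like and macrophage-like cells lay lower. The 4 genes together made up 69930 CPM in Langerhans-like, 68634 CPM in type 2 dendritic-like and 33283 CPM in macrophage-like cells of the 3-week knockout, against 53762 CPM in Langerhans-like, 50813 CPM in type 2 dendritic-like and 22793 CPM in macrophage-like cells of the control. Type 1 dendritic-like cells had 43466 CPM over 10 cells of the 3-week knockout and 44765 CPM over 7 cells of the control. Immune cells without a class name had 20844 CPM over 23 cells of the 3-week knockout and 17597 CPM over 27 cells of the control. Mast-like cells had no UMI of the 4 genes in 4 cells of the 3-week knockout and 6 cells of the control. T or natural killer-like cells had 25.3 CPM in the 2-week knockout, 146 CPM in the 3-week knockout and 301 CPM in the control, and 1 control cell alone held 150 of those UMIs.

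Detection per cell shows the same division and the background. After thinning every cell to 1000 UMIs, Cd74 was found in 100% of Langerhans-like cells of each library. In Schwann-like cells, which do not normally present antigen by class II, it was found in 0 of 119 cells of the 2-week knockout, which allows a share of up to 3.05%. It was found in 2.78% of cells of the 3-week knockout (4 of 144) and in 4.05% of control cells (3 of 74). Basal keratinocyte-like cells were at 0.707% in the 2-week knockout, 1.62% in the 3-week knockout and 1.80% in the control, which was below the Schwann-like share except in the 2-week knockout, where 0.707% lay under the limit of 3.05%. Without thinning the Schwann-like share was 0.820% in the 2-week knockout (median depth 2409 UMIs), 5.41% in the 3-week knockout (2284 UMIs) and 10.3% in the control (2918 UMIs). The basal share without thinning was 6.48% in the 2-week knockout (11199 UMIs), 13.9% in the 3-week knockout (12464 UMIs) and 10.2% in the control (14984 UMIs). Cd74 shares of this size were read as background and not as expression.

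In Langerhans-like cells of the 3-week knockout the invariant chain gene was higher relative to the control than the genes of the alpha and beta chains. Cd74 was 29451 CPM in the 3-week knockout and 18628 CPM in the control, a ratio of 1.58 (1.55 to 1.62). H2-Aa was 12431 CPM in the 3-week knockout and 10539 CPM in the control, a ratio of 1.18. H2-Ab1 was 14804 CPM in the 3-week knockout and 13329 CPM in the control, a ratio of 1.11. All 3 chain genes, H2-Eb1 included at 13243 CPM in the 3-week knockout and 11266 CPM in the control, were thus closer to the control than Cd74. The peptide-exchange genes lay between them: H2-DMa was 1582 CPM in the 3-week knockout and 1223 CPM in the control (ratio 1.29, 1.19 to 1.41), and H2-DMb1 was 1011 CPM in the 3-week knockout and 835 CPM in the control (ratio 1.21, 1.09 to 1.35).

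Ciita went the other way in the same cells. The transactivator gene had 159 UMIs or 170 CPM in the 3-week knockout and 208 UMIs or 311 CPM in the control, a ratio of 0.546 (0.442 to 0.675). In the 2-week knockout it had 59 UMIs or 184 CPM, a ratio to the control of 0.590 (0.434 to 0.792). Both knockout libraries were thus lower than the control in Ciita while the other 6 genes were not lower in the 3-week knockout. At least 1 Ciita UMI was present in 62.2% of Langerhans-like cells of the 2-week knockout, 54.5% of the 3-week knockout and 69.6% of the control, and after thinning in 17.8% in the 2-week knockout, 15.9% in the 3-week knockout and 18.8% in the control, so the thinned shares were close.

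The 2-week knockout differed less from the control. H2-Aa was 9394 CPM against 10539 CPM in the control (ratio 0.891, 0.854 to 0.930), H2-Ab1 11970 CPM against 13329 CPM in the control (0.898, 0.865 to 0.933) and H2-Eb1 10157 CPM against 11266 CPM in the control (0.902, 0.865 to 0.94). Cd74 was 19706 CPM in the 2-week knockout and 18628 CPM in the control (1.06, 1.03 to 1.09), and H2-DMa and H2-DMb1 had ratios of 0.988 and 0.981 whose intervals included 1. The direction of the small chain differences depended on which Langerhans-like cells were counted. The larger Langerhans-like cluster, led by Cd207, Tbc1d4 and Il1r2, held 25 of the 45 cells of the 2-week knockout and 63 of the 69 control cells, and within it H2-Aa had a ratio of 1.02, H2-Ab1 1.03, H2-Eb1 0.999, Cd74 1.14 and Ciita 0.663. For the 3-week knockout the same cluster gave 1.58 for Cd74 and 0.531 for Ciita.

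**Figure D2:**
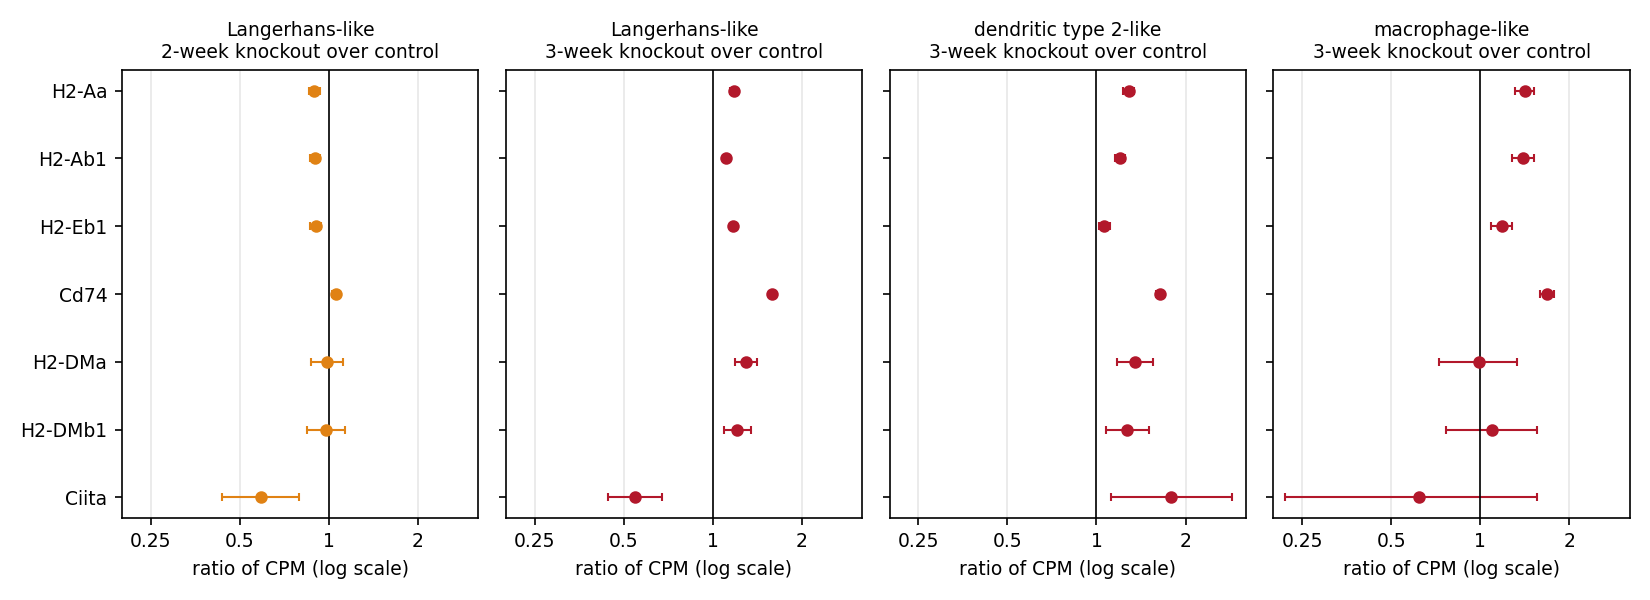
Ratio of each of the 7 genes to the control (log axis) in Langerhans-like cells of the 2-week and the 3-week knockout and in type 2 dendritic-like and macrophage-like cells of the 3-week knockout, with 95% counting intervals. Cd74 is the highest of the chain and invariant chain genes in each comparison, and Ciita is below 1 in Langerhans-like cells of both knockouts.

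These sizes were modest beside other genes of the same cells. No member was 2-fold different in Langerhans-like cells of the 2-week knockout, where 6.6% of 2699 genes were, or of the 3-week knockout, where 4.8% of 3730 genes were. At a limit of 1.5-fold, 1 of 7 members was higher in the 3-week knockout (Cd74) and 1 lower (Ciita), against 7.05% of all genes higher and 13.5% lower. In the 2-week knockout 0 members were higher, against 8.67% of genes, and 1 was lower (Ciita), against 13.9%. The median log2 ratio of the members was −0.15 in the 2-week knockout and 0.24 in the 3-week knockout, while that of all genes tested was −0.12 in the 2-week knockout and −0.11 in the 3-week knockout. Scaling by the median ratio in place of the total count moved all these ratios upward, to 1.04 for the 4 genes in the 2-week knockout and 1.41 in the 3-week knockout, and left Ciita in the 2-week knockout at 0.643.

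The difference in Cd74 recurred in dendritic-like and macrophage-like cells of the 3-week knockout. In type 2 dendritic-like cells Cd74 was 30926 CPM in the 3-week knockout and 18916 CPM in the control (1.64, 1.59 to 1.68), H2-Aa 13477 CPM against 10500 CPM in the control (1.28), H2-Ab1 13060 CPM against 10880 CPM in the control (1.20) and H2-Eb1 11171 CPM against 10517 CPM in the control (1.06, 1.02 to 1.11). In macrophage-like cells Cd74 was 14100 CPM in the 3-week knockout and 8383 CPM in the control (1.68, 1.59 to 1.78), H2-Aa 7809 CPM against 5532 CPM in the control (1.41), H2-Ab1 5736 CPM against 4107 CPM in the control (1.40) and H2-Eb1 5638 CPM against 4770 CPM in the control (1.18). H2-Eb1 was thus the chain gene closest to the control in both classes. When cells were thinned to 1000 UMIs, type 2 dendritic-like cells gave ratios below 1 for H2-Ab1 (0.935), H2-Eb1 (0.886) and H2-DMb1 (0.918), and with doublets kept H2-Eb1 was at 0.983, so the direction of these genes is not settled there. All of these comparisons use the same control library.

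The peptide-exchange genes and Ciita were not alike in these classes. In type 2 dendritic-like cells H2-DMa had a ratio of 1.35 (1080 CPM in the 3-week knockout and 801 CPM in the control), H2-DMb1 1.27, and Ciita 1.78 (1.12 to 2.86) from 48 UMIs in the 3-week knockout and 33 UMIs in the control. In macrophage-like cells H2-DMa was 400.3 CPM in the 3-week knockout and 405 CPM in the control (0.988), H2-DMb1 had a ratio of 1.10, and Ciita had 7 UMIs in the 3-week knockout and 18 UMIs in the control, a ratio of 0.621 (0.219 to 1.56). Ciita was therefore higher in type 2 dendritic-like cells, lower in Langerhans-like cells and not resolved in macrophage-like cells. In type 2 dendritic-like cells 0 of 7 members were 2-fold different against 9.59% of 2335 genes, and 2 of 7, Cd74 and Ciita, were at least 1.5-fold higher against 8.69%. In macrophage-like cells 0 of 6 members tested were 2-fold different against 9.44% of 1493 genes, and 1 of 6, Cd74, was at least 1.5-fold higher against 9.98%. The median log2 ratio of the members was 0.36 in both classes, while that of all genes tested was −0.17 in type 2 dendritic-like and −0.14 in macrophage-like cells. Scaling by the median ratio gave 1.53 in type 2 dendritic-like and 1.61 in macrophage-like cells for the 4 genes, in place of 1.35 and 1.46.

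The differences between libraries were smaller than the range between single cells. In UMIs per 10000, the 4 genes had a median of 564 (23.6 to 851) in Langerhans-like cells of the 2-week knockout, 734 (93.1 to 1061) in those of the 3-week knockout and 586 (86.8 to 806) in those of the control. For type 2 dendritic-like cells the median was 675 (61.5 to 1112) in the 3-week knockout and 525 (70.6 to 1461) in the control. In macrophage-like cells it was 379 (11.5 to 601) in the 3-week knockout and 247 (2.83 to 504) in the control. The ranges overlapped over most of their length in all 3 classes, and the median was highest in the 3-week knockout in each. Cells of 1 library are not replicates of a condition.

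**Figure D3:**
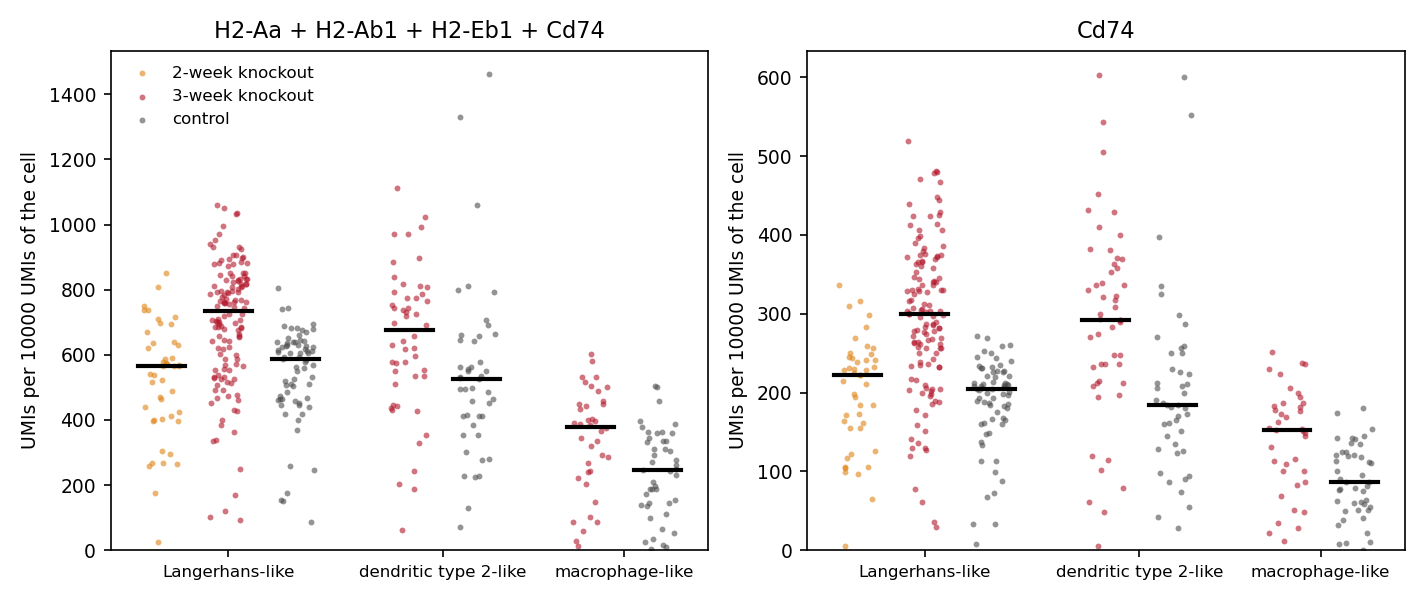
UMIs of the 4 genes and of Cd74 per 10000 UMIs in each cell of the antigen-presenting classes, by library, with 1 point per cell and a bar at the median. The cells of the libraries overlap, and the medians of the 3-week knockout lie highest.

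Markers of other cells moved with some of these values, and their part in the results was not tested. In Langerhans-like cells all 6 Langerhans markers were found in each library, with a sum of 10911 CPM in the 2-week knockout, 11646 CPM in the 3-week knockout and 13727 CPM in the control. Of 9 macrophage markers, Mrc1, Cd163, Folr2 and Fcgr1 were at 0 in all 3 libraries, and the sum of the list was 178 CPM in the 2-week knockout, 236 CPM in the 3-week knockout and 263 CPM in the control. Monocyte markers summed to 3.12 CPM in the 2-week knockout, 66.3 CPM in the 3-week knockout and 10.5 CPM in the control, and migratory dendritic markers to 255 CPM in the 2-week knockout, 455 CPM in the 3-week knockout and 260 CPM in the control. T or natural killer markers summed to 707 CPM in the 2-week knockout, 711 CPM in the 3-week knockout and 940 CPM in the control. Of single genes, Cd207 was 5672 CPM in the 2-week knockout, 6656 CPM in the 3-week knockout and 8815 CPM in the control, and the myeloid gene Lyz2 was 12.5 CPM in the 2-week knockout, 342 CPM in the 3-week knockout and 15 CPM in the control. The sum of the Langerhans markers and Cd207 were thus lower in both knockouts than in the control. Basal keratinocyte markers summed to 2218 CPM in the 2-week knockout, 662 CPM in the 3-week knockout and 816 CPM in the control. The cluster called type 2 dendritic-like also scored higher for migratory dendritic markers (1.82) than for its own (1.61), and took its name from 3 of its 10 leading genes. Its 6 class markers summed to 3798 CPM in the 3-week knockout and 2336 CPM in the control, the migratory markers to 218 CPM against 659 CPM in the control, and the T or natural killer markers to 688 CPM against 1681 CPM in the control. In macrophage-like cells the macrophage markers summed to 11445 CPM in the 3-week knockout and 12415 CPM in the control, and basal keratinocyte markers to 1355 CPM in the 3-week knockout and 337 CPM in the control. The type 2 dendritic markers summed to 3439 CPM in macrophage-like cells of the 3-week knockout and 2998 CPM in those of the control. These sums were near those of the type 2 dendritic-like class, so this list did not separate the 2 classes. Macrophage markers did, at 1103 CPM in type 2 dendritic-like cells of the 3-week knockout and 870 CPM in those of the control.

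The ratio of Cd74 to H2-Ab1 UMIs within the same cells does not depend on the total count of the library. In Langerhans-like cells there were 1.65 (1.58 to 1.71) Cd74 UMIs per H2-Ab1 UMI in the 2-week knockout, 1.99 (1.95 to 2.03) in the 3-week knockout and 1.40 (1.36 to 1.44) in the control. The larger Langerhans-like cluster gave 1.53 in the 2-week knockout, 1.92 in the 3-week knockout and 1.38 in the control, and the smaller cluster, led by H2-M5, Grasp and H2-M2, gave 1.85 in the 2-week knockout, 2.17 in the 3-week knockout and 1.68 in the control. The ratio was 2.37 (2.29 to 2.45) in type 2 dendritic-like cells of the 3-week knockout and 1.74 (1.68 to 1.80) in those of the control. In type 1 dendritic-like cells it was 1.82 (1.67 to 1.99) in the 3-week knockout and 1.47 (1.37 to 1.59) in the control, and in macrophage-like cells 2.46 (2.29 to 2.64) in the 3-week knockout and 2.04 (1.90 to 2.19) in the control. An unnamed immune cluster led by Retnla, S100a9 and Fn1 gave 2.42 (2.19 to 2.67) over 11 cells of the 3-week knockout and 1.69 (1.55 to 1.83) over 12 control cells. Each of these 6 immune groups thus had more invariant chain transcript per beta chain transcript in the 3-week knockout than in the control.

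The balance of the beta chain gene H2-Eb1 and the alpha chain gene H2-Aa was near 1 in Langerhans-like cells, below 1 in type 2 dendritic-like and macrophage-like cells of the 3-week knockout and above 1 in interfollicular keratinocytes. Langerhans-like cells had 1.08 H2-Eb1 UMIs per H2-Aa UMI in the 2-week knockout, 1.06 in the 3-week knockout and 1.07 in the control. Type 2 dendritic-like cells had 0.829 in the 3-week knockout and 1.002 in the control, and macrophage-like cells 0.722 in the 3-week knockout and 0.862 in the control. Basal keratinocyte-like cells had 3.77 (2.87 to 5.03, from 249 and 66 UMIs) in the 2-week knockout, 2.30 (1.94 to 2.74, from 435 and 189 UMIs) in the 3-week knockout and 3.77 (2.72 to 5.31, from 177 and 47 UMIs) in the control. H2-Eb1 therefore had more UMIs than H2-Aa in basal cells of every library, at 13.9 CPM in the 2-week knockout, 17.0 CPM in the 3-week knockout and 14.9 CPM in the control, beside H2-Aa at 3.67 CPM in the 2-week knockout, 7.37 CPM in the 3-week knockout and 3.95 CPM in the control.

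In thinned cells H2-Eb1 was found in 1.35% of basal cells of the 2-week knockout, 1.27% of the 3-week knockout and 2.18% of the control. In Schwann-like cells it was found in 0 of 119 cells of the 2-week knockout, which allows up to 3.05%. It was found in 0.694% of the 3-week knockout (1 of 144 cells) and in 2.70% of the control (2 of 74 cells). These shares do not set basal cells apart from background.

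Suprabasal keratinocyte-like cells had the same direction. Over all their cells H2-Eb1 was 34.55 CPM in the 2-week knockout, 56.78 CPM in the 3-week knockout and 44.34 CPM in the control. H2-Aa was 15.63, 41.91 and 26.18 CPM in the same order. Suprabasal cells with no UMI of Cd207, Ptprc, Tyrobp and Fcer1g, genes of Langerhans cells and leukocytes, had larger ratios. They had 5.12 H2-Eb1 UMIs per H2-Aa UMI in the 2-week knockout, 3.27 in the 3-week knockout and 4.10 in the control. Upper hair follicle-like cells did not share it, with 1.13 in the 2-week knockout, 1.12 in the 3-week knockout and 1.15 in the control over all their cells. An antisense gene, Gm20513, overlaps the start of H2-Eb1 and had 2 UMIs in the 2-week knockout, 2 in the 3-week knockout and 3 in the control.

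The peptide-exchange genes also parted outside the immune cells. Langerhans-like cells had 0.678 H2-DMb1 UMIs per H2-DMa UMI in the 2-week knockout, 0.639 in the 3-week knockout and 0.683 in the control. Bulge-like cells, which hold the stem cells of the hair follicle, had 9.26 (6.49 to 13.6, from 315 and 34 UMIs) in the 2-week knockout, 4.07 (2.28 to 7.70, from 61 and 15 UMIs) in the 3-week knockout and 12.5 (5.48 to 35.1, from 75 and 6 UMIs) in the control. H2-DMb1 was thus the more counted member of the pair in bulge-like cells and the less counted one in Langerhans-like cells. H2-DMb2 had 1 UMI in bulge-like cells of the 2-week knockout, 2 in those of the 3-week knockout and 0 in those of the control. Epithelial cells without a class name resembled bulge-like cells. Without thinning, H2-DMb1 was found in 9.85% of them in the 2-week knockout, 8.63% in the 3-week knockout and 12.6% in the control. H2-DMa was found in 2.18%, 1.61% and 1.55% in the same order. Basal cells lay between bulge-like and Langerhans-like cells, with a ratio of 2.40 in the 2-week knockout, 3.11 in the 3-week knockout and 4.37 in the control. Sebaceous-like cells were on the other side of 1, with 0.533 (8 and 15 UMIs) in the 3-week knockout and 0.7 (7 and 10 UMIs) in the control, so this order was not shared by all keratinocyte classes.

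**Figure D4:**
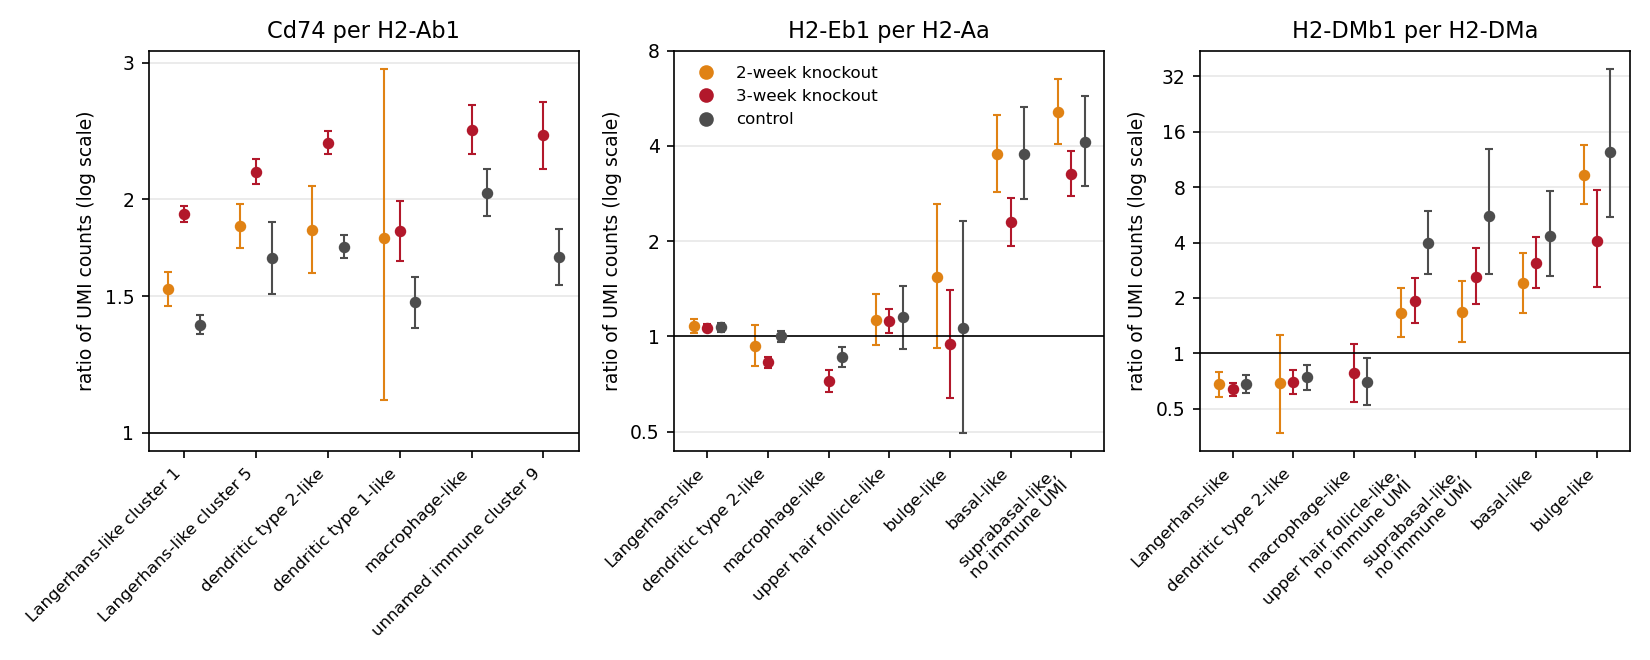
UMIs of 1 gene per UMI of another in the same cells (log axis) for Cd74 per H2-Ab1, H2-Eb1 per H2-Aa and H2-DMb1 per H2-DMa, by class and library, with 95% counting intervals. Cd74 per H2-Ab1 is highest in the 3-week knockout in the immune classes, and H2-Eb1 per H2-Aa is above 1 in basal and suprabasal cells. H2-DMb1 per H2-DMa is highest in bulge-like cells among the classes shown, which leave out epithelial cells without a class name.

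In upper hair follicle-like cells the summed level of the class II genes was far higher in the 3-week knockout, and a few cells carried it. The 4 genes had 72.7 CPM in the 2-week knockout, 332 CPM in the 3-week knockout and 70.5 CPM in the control, a ratio to the control of 1.03 for the 2-week and 4.71 (4.39 to 5.06) for the 3-week knockout. Single genes of the 3-week knockout had ratios of 4.54 for H2-Aa, 4.48 for H2-Ab1, 4.43 for H2-Eb1, 5.01 for Cd74 and 4.21 for H2-DMa. Of the 6 members tested, 5 were at least 2-fold higher, beside 48 of 11059 genes higher and 1.57% of them in either direction, and in the 2-week knockout 0 of 6 were, against 0.88% of 10912 genes. There were 2 cells with at least 50 UMIs of the 4 genes in the 2-week knockout, 10 in the 3-week knockout and 1 in the control, and Cd207, the langerin gene of Langerhans cells, was found in all of these cells of the knockouts and in 0 of the control. Without the cells that had any UMI of the 4 immune genes, the 3-week knockout had 61.4 CPM and the control 71.4 CPM, a ratio of 0.859 (0.784 to 0.942). The direction of the difference thus depended on the cells with immune transcripts, and the value without them rested in turn on a few control cells. Of the 369 Cd74 UMIs in such cells of the control, 187 lay in 16 cells, and among the cells with under 10 UMIs of the 4 genes Cd74 was 19.8 CPM in the 3-week knockout and 15.6 CPM in the control.

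Similar cells lay in other keratinocyte classes. Of 45 keratinocyte-class cells with at least 50 UMIs of the 4 genes, 42 held Cd207. In suprabasal cells the 4 genes had 89.1 CPM in the 2-week knockout, 240 CPM in the 3-week knockout and 148 CPM in the control. In the suprabasal cells with no immune UMI they had 37.8 CPM in the 2-week knockout, 42.4 CPM in the 3-week knockout and 31.6 CPM in the control. In the 3-week knockout 1 of 6 members tested was at least 2-fold different in suprabasal cells, against 1.39% of 11257 genes, and 0 of 6 in basal cells, against 1.79% of 10885 genes.

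A different set of upper hair follicle-like cells held class II transcripts without those immune genes. There were 13 such cells with at least 10 UMIs of the 4 genes in the 2-week knockout, 17 in the 3-week knockout and 16 in the control. They were 0.778% in the 2-week knockout, 0.975% in the 3-week knockout and 1.60% in the control of the class. They held 10 to 35 UMIs in the 2-week knockout, 10 to 37 in the 3-week knockout and 10 to 107 in the control. The medians were 15 in the 2-week knockout, 14 in the 3-week knockout and 22 in the control, so the libraries overlapped. The limit of 10 was a choice within a continuous tail, since 14 cells held 8 or 9 UMIs and 15 cells held 10 to 12, while 3206 cells held 0. The set came mostly from 1 of the 3 upper hair follicle-like clusters, with 27 of its 1559 cells, against 15 of 1796 and 4 of 1058 in the others. Across all keratinocyte classes 70 cells met the same limit.

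Genes that had not been used to choose these 46 cells differed between them and the other 4210 cells of the class with no immune UMI, at median depths of 10388 and 9312 UMIs. Ciita was found in 5 of the 46 and in 7 of the 4210 cells, with 10.9 CPM in the 46 cells and 0.182 CPM in the others. The 5 cells came from every library, 3 from the 2-week knockout, 1 from the 3-week knockout and 1 from the control. H2-DMa was found in 16 of the 46 and 160 of the 4210 cells (28.0 CPM against 3.69 CPM in the others), and H2-DMb1 in 15 of the 46 and 360 of the 4210 cells (26.5 CPM against 8.70 CPM in the others). Both sets of cells were chosen to have no UMI of Cd207, Ptprc, Tyrobp or Fcer1g. Low counts of other genes of antigen-presenting cells were thus partly set by that choice. Of these genes, Ctss, Spi1, Cd86, H2-DMb2, Lyz2 and Coro1a had 0 UMIs in the 46 cells and 0.706 CPM or lower in the others. At such levels 46 cells would hold few UMIs in any case, so these zeros do not set the cells apart. Cd52 had 1 UMI (1.56 CPM against 2.12 CPM in the others). The pan-immune marker Laptm5 went the other way, in 3 of the 46 and 23 of the 4210 cells (4.67 CPM against 0.570 CPM in the others). So did Cd40, with UMIs in 2 of the 46 and 2 of the 4210 cells (6.23 CPM against 0.0456 CPM in the others). The Langerhans markers Mfge8 (9.34 CPM against 3.87 CPM) and Hapln3 (3.11 CPM against 0.137 CPM) were also higher in the 46 cells, the second from 1 cell. Of the interferon gamma pathway, Irf1 was 257 CPM in the 46 cells and 297 CPM in the others, and Ifngr1 87.2 CPM against 74.7 CPM in the others. The cells share 3 libraries and are not replicates, and the comparison was not tested.

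**Figure D5:**
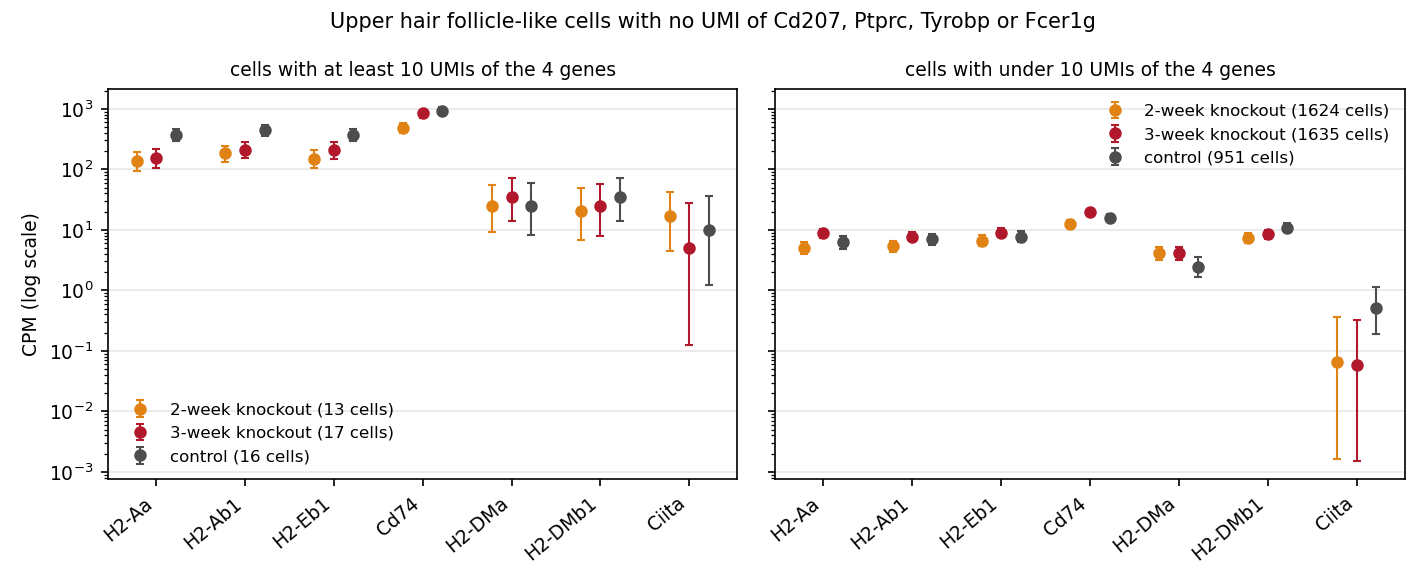
Levels of the 7 genes (CPM, log axis) in upper hair follicle-like cells with no UMI of the 4 immune genes, for the 46 cells with at least 10 UMIs of the 4 class II genes (left) and the other 4210 cells (right), with 1 point per library and 95% counting intervals. The first 4 genes chose the cells; H2-DMa, H2-DMb1 and Ciita did not, and they lie higher on the left in each library, where the intervals are wide.

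Other classes had low levels. Dermal papilla or sheath-like cells had more H2-Ab1 than its partners in the 2-week knockout, with 54 UMIs of H2-Ab1 beside 3 of H2-Aa and 1 of Cd74. In cells of this class with no immune UMI, H2-Ab1 had 54 UMIs and Cd74 1 UMI in the 2-week knockout, 101 and 59 in the 3-week knockout, and 53 and 19 in the control. H2-Ab1 thus had more UMIs than Cd74 in these cells of each library, the reverse of the Langerhans-like, type 2 dendritic-like and macrophage-like cells. The 4 genes in all cells of the class had 22.5 CPM in the 2-week knockout, 73.8 CPM in the 3-week knockout and 311 CPM in the control, where 1 cell alone held 599 UMIs. That cell set the level of the control class. Fibroblast-like cells had 25.8 CPM of the 4 genes in the 2-week knockout, 131 CPM in the 3-week knockout and 39.8 CPM in the control, and blood endothelial-like cells 70.6 CPM in the 2-week knockout, 122 CPM in the 3-week knockout and 49.8 CPM in the control.

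The wider pathway list held genes for peptide loading, lysosomal proteases, turnover of surface class II, transcription, costimulation and interferon gamma signalling. In Langerhans-like cells of the 2-week knockout no gene of 17 tested was 2-fold higher and 2 genes were 2-fold lower, beside 89 higher and 89 lower of all 2699 genes, with a median log2 ratio of −0.27. These were Cd40, a costimulatory receptor, at 31.2 CPM in the 2-week knockout and 94.3 CPM in the control (0.330, 0.151 to 0.648), and Jak2, a kinase of the interferon gamma receptor, at 49.8 CPM in the 2-week knockout and 154 CPM in the control (0.323, 0.178 to 0.550). In the 3-week knockout 1 of 21 was higher and 0 were lower, beside 82 higher and 97 lower of all 3730 genes, and the median was −0.04. That gene was Ctsl, a lysosomal protease, at 50.3 CPM in the 3-week knockout and 12 CPM in the control (4.2, 1.97 to 10.3). In the 2-week knockout Ctsl was 65.4 CPM, a ratio to the control of 5.46 (2.32 to 14.3) from 21 and 8 UMIs. It was under the limit of 50 UMIs there and so was not among the genes tested. The pathway list as a whole lay near the median of all genes in the 3-week knockout and below it in the 2-week knockout.

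Genes of peptide loading and proteolysis differed in where they were highest. Ctsl in the 3-week knockout was 591 CPM in fibroblast-like and 537 CPM in macrophage-like cells, beside the 50.3 CPM of Langerhans-like cells. H2-DMb2, the second DM beta gene, was 193 CPM in the 2-week knockout, 301 CPM in the 3-week knockout and 168 CPM in the control in Langerhans-like cells, a 3-week ratio of 1.79 (1.44 to 2.25). Ctss, the cathepsin that removes the invariant chain, was 660 CPM in the 2-week knockout, 691 CPM in the 3-week knockout and 525 CPM in the control. In macrophage-like cells Ctss was 1201 CPM in the 3-week knockout and 848 CPM in the control (1.42, 1.18 to 1.71). Ctsb, another cathepsin, was at its highest in macrophage-like cells, with 3471 CPM in the 3-week knockout and 3966 CPM in the control. Ifi30, a thiol reductase that unfolds antigens, was 265 CPM in the 2-week knockout, 314 CPM in the 3-week knockout and 304 CPM in the control in Langerhans-like cells, and 662 CPM in the 3-week knockout and 781 CPM in the control in type 2 dendritic-like cells.

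Regulators and costimulators differed less evenly. Spi1, which encodes the myeloid factor PU.1, was 215 CPM in the 2-week knockout, 302 CPM in the 3-week knockout and 232 CPM in the control in Langerhans-like cells. Cd83, which limits removal of class II from the surface, was 648 CPM in the 2-week knockout, 819 CPM in the 3-week knockout and 862 CPM in the control. Cd86, a costimulatory ligand, was 473 CPM in the 2-week knockout, 582 CPM in the 3-week knockout and 599 CPM in the control. Neither was higher in Langerhans-like cells of a knockout library. Cd83 was higher in the 3-week knockout in 2 other classes, at 1481 CPM against 1125 CPM in the control in type 2 dendritic-like cells (1.32, 1.17 to 1.49) and 1141 CPM against 749 CPM in the control in macrophage-like cells (1.52, 1.25 to 1.85). March1, the ubiquitin ligase that removes surface class II, was 49.8 CPM in the 2-week knockout, 46.0 CPM in the 3-week knockout and 32.9 CPM in the control. Jak1, which like Jak2 signals from the interferon gamma receptor, was 131 CPM in the 2-week knockout, 168 CPM in the 3-week knockout and 195 CPM in the control. Cd274, an inhibitory ligand, was 39.4 CPM in type 2 dendritic-like cells of the 3-week knockout and 174 CPM in the control (0.227), and Cd209a, a lectin also among the markers of the class, was 1274 CPM in the 3-week knockout and 455 CPM in the control (2.80). In macrophage-like cells Ctsd, a lysosomal protease, was 203 CPM in the 3-week knockout and 433 CPM in the control (0.469), Irf4, a transcription factor, 65.8 CPM against 148 CPM in the control (0.446), and Cd209a 872 CPM against 378 CPM in the control (2.31).

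In keratinocytes the genes of the pathway list past 2-fold differed by class and library. Irf1, an interferon-induced transcription factor, was 448 CPM in upper hair follicle-like cells of the 2-week knockout and 153 CPM in the control (2.94, 2.79 to 3.09), the 1 gene of 25 that was at least 2-fold higher, beside 39 of all 10912 genes. In suprabasal cells of the 3-week knockout 2 of 28 genes tested were at least 2-fold lower and 0 higher, beside 117 lower and 40 higher of all 11257 genes. In basal cells 1 of 25 was lower and 0 higher, beside 141 lower and 54 higher of all 10885 genes. Jak2 was 22.8 CPM in the 3-week knockout and 59.7 CPM in the control in suprabasal cells (0.382), and 27.6 CPM in the 3-week knockout and 70.4 CPM in the control in basal cells (0.393). Cd274 was 6.83 CPM in the 3-week knockout and 24.6 CPM in the control in suprabasal cells (0.278). The class II genes of upper hair follicle-like cells with no immune UMI were not higher in the 2-week knockout, at 44.1 CPM of the 4 genes against 71.4 CPM in the control.

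The genes whose pattern over classes and libraries was most like that of H2-Aa, H2-Ab1, H2-Eb1 and Cd74 were myeloid genes. Over 47 profiles, each 1 class in 1 library, and 8304 genes, the highest Pearson correlations of log2(CPM + 5) were 0.972 for Cd86, 0.972 for Spi1, 0.970 for Ctss, 0.968 for Alox5ap and 0.963 for Nlrp3. Clec4n, Adgre4, Tyrobp, March1 and Cd83 followed, down to 0.957. Among the members Ciita had 0.957, H2-DMa 0.973 and H2-DMb1 the lowest value. The profiles share libraries and depth, so the values are a description.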

How the data were processed

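The authors deposited 1 matrix per library of raw counts of UMIs per gene and cell barcode, made with Cell Ranger 6.1.2 on the mm10 mouse genome per the submitters' processing notes (the gene annotation used and whether intronic reads were counted: not given in the sources used here). Back skin had been digested with collagenase I and then trypsin, per the labels' protocols. The matrices held 11144 barcodes for the 2-week knockout, 11186 for the 3-week knockout and 5621 for the control, and in all 97960352 UMIs in the 2-week knockout, 118610125 in the 3-week knockout and 62967542 in the control. Kept cells had at least 500 genes and under 15% mitochondrial counts, and Scrublet as built into scanpy 1.11.5 removed 3.05% of the cells that passed in the 2-week knockout, 3.56% in the 3-week knockout and 2.45% in the control as doublets.

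Cells of the 3 libraries were clustered together without class II genes (2000 variable genes, 30 principal components, 15 neighbours, Leiden resolution 1, seed 1), and immune clusters were clustered again. Names came from marker lists, with at least 3 markers found in 10% of cells and a lead of 0.25 in mean score over the next class, or, where the class with the best score had no marker among the 10 leading genes, at least 2 markers there. The type 2 dendritic name came from the second way: that cluster scored 1.61 for its own markers, with 3 among its leading genes, and 1.82 for migratory dendritic markers, with none. The rule for names, thresholds included, was chosen with the clusters in view. The 7 genes, the pathway list and the other lists were chosen with earlier results of these data known.

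UMIs were summed per class and library and given as CPM. Levels have exact Poisson, shares exact Clopper-Pearson and ratios exact conditional binomial intervals at 95%, for counting error only. Fold counts used log2((CPM + 5)/(CPM + 5)) over genes with at least 50 UMIs in both libraries together, in classes with at least 20 cells in each. They were made in Langerhans-like and upper hair follicle-like cells for both knockouts, and in type 2 dendritic-like, macrophage-like, suprabasal and basal cells for the 3-week knockout only. Dendritic-like and macrophage-like cells of the 2-week knockout were under 20. No test was possible with 1 library per group. Named pathway genes were those at least 2-fold different in a class compared and the highest of each role, and the genes most alike were the 10 with the highest correlation among genes with at least 50 CPM in a profile. UMIs of different genes were not divided by length, since reads come from the transcript end. Ratios of gene pairs were compared across classes and libraries. Within a class a pair was compared as counts of UMIs only. March1 and March8 were found, while H2-Ea, H2-Ea-ps, Marchf1 and Marchf8 were not found by symbol. The procedure was tested on simulated data. Python 3.11.15, numpy 2.4.6, scipy 1.17.1, scikit-learn 1.9.0 and leidenalg 0.10.2 were used.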

Additional observations from a re-analysis of the deposited data

How the results depend on the processing

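No paired analysis was possible because each group has 1 library. The ratio to the control of H2-Aa, H2-Ab1, H2-Eb1 and Cd74 together kept its direction in Langerhans-like, type 2 dendritic-like and macrophage-like cells of the 3-week knockout under every alternative run. In Langerhans-like cells of that library it was 1.30, with 1.28 when doublets were kept, 1.27 with a minimum of 200 genes per cell, 1.41 with median-of-ratios size factors and 1.54 with both Langerhans-like clusters weighed equally. In type 2 dendritic-like cells it was 1.35, with 1.25 when doublets were kept, 1.53 with size factors, 1.15 in cells thinned to 1000 UMIs and 1.33 without the cell with the most UMIs. H2-Ab1 (0.935), H2-Eb1 (0.886) and H2-DMb1 (0.918) fell below the control there when cells were thinned, and H2-Eb1 (0.983) when doublets were kept. In macrophage-like cells it was 1.46, with 1.61 under size factors.

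The 2-week ratio in Langerhans-like cells, 0.953, changed direction: it was 1.03 with a minimum of 200 genes, 1.04 at resolution 2, with doublets kept, with a mitochondrial limit of 10% or with size factors, 1.06 in the larger cluster and 1.13 with both clusters weighed equally, and 0.979 in thinned cells. In the larger cluster H2-Aa was 1.02 and H2-Ab1 1.03, and with equal weights H2-Aa was 1.11, H2-Ab1 1.10 and H2-Eb1 1.05. The cause was not tested.

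In upper hair follicle-like cells the 3-week ratio of 4.71 was 0.929 with class II genes among the clustering genes (H2-Aa 0.949, H2-Ab1 0.784, H2-Eb1 0.907), 1.16 at resolution 2 (H2-Ab1 0.986), 1.76 with doublets kept, 1.58 with a limit of 10% or a minimum of 200 genes, 2.89 in thinned cells and 0.859 in cells with no UMI of the 4 immune genes (Cd74 0.951, H2-Aa 0.843, H2-Ab1 0.709, H2-Eb1 0.823). The 2-week ratio of 1.03 was 0.896 with class II genes among the clustering genes, 0.839 at resolution 2, 0.906 with doublets kept, 0.884 with a limit of 10%, 0.886 with a minimum of 200 genes, 0.668 in thinned cells (H2-DMb1 1.08), 0.901 without the cell with the most UMIs and 0.618 in cells with no immune UMI. Counts of genes at least 2-fold different without a filter on low counts were 1776 in Langerhans-like cells of the 2-week knockout and 875 of the 3-week knockout, 2070 in type 2 dendritic-like and 3552 in macrophage-like cells, against 178, 179, 224 and 141 with it, in that order of classes. The settings on immune genes and on single Langerhans-like clusters, and the 1.5-fold limit, were chosen after seeing the data. Ciita, with 670 UMIs in all kept cells, was limited by depth outside Langerhans-like cells.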
